A study of Mus musculus with 18 samples.

Results

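The net change made by lipopolysaccharide (LPS) and JQ1 together was measured in 6 of the 18 RNA-seq libraries of the series. The titles put 3 libraries in the LPS + JQ1 group and 3 in the unstimulated, untreated group, and every gene with a test in this comparison was described. All libraries came from bone marrow-derived macrophages (BMDMs), which are macrophages grown out of bone marrow, here over 6 days in medium conditioned by L929 cells. The donors were 3 male Il10-/- mice of 12 weeks on the C57BL/6J background, so both groups lack interleukin 10 (IL-10), a cytokine that restrains macrophage activation. Cells of the LPS + JQ1 group were given (+)-JQ1 at 500 nM for 12 hours, and LPS at 50 ng/mL was then added for 4 hours. Unstimulated cells received neither agent and were cultured for the same 16 hours. The study's methods name a vehicle control ahead of LPS and list untreated, unstimulated cells as a control apart from it. The labels call cells without JQ1 untreated, those given LPS included. Neither states outright whether the unstimulated cells had the vehicle. The effects of LPS, of JQ1 and of any difference in solvent cannot be told apart in this comparison. The groups given LPS alone or JQ1 alone, also of 3 libraries each, supplied values set beside the net change. The comparison asks what state the cells reached when a bacterial stimulus met inhibited BET proteins, measured from rest.

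LPS, a component of the outer membrane of Gram-negative bacteria, is sensed by Toll-like receptor 4 (TLR4) together with CD14 and MD-2. The adaptors MyD88 and TRIF then lead to NF-kB and AP-1, which drive cytokine and chemokine genes, and to IRF3, which drives interferon beta and through it the interferon-stimulated genes. BET proteins, among them BRD2 and BRD3, bind acetylated histones and help recruit P-TEFb, the kinase that releases paused RNA polymerase II, and JQ1 occupies the bromodomains through which they bind. HEXIM1 holds P-TEFb in an inactive complex, and its gene is widely used as a readout of BET inhibition.

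The 6 libraries held between 6781952 and 16434015 expected counts and detected between 13394 and 14454 genes, the smallest total belonging to an unstimulated library. Counts are given below as normalised counts, the rounded expected counts divided by DESeq2's size factors, always in the order of replicates 1, 2 and 3. The labels do not say which replicate came from which mouse. Fold changes are fitted log2 ratios with their standard error (SE), and p-values are from the DESeq2 Wald test with Benjamini-Hochberg adjustment over all genes tested. The macrophage identity given by the labels was borne out by the summed TPM of its markers. TPM is a measure of relative abundance corrected for gene length. The sum was 22970 to 24770 in unstimulated cells and 19580 to 22560 with LPS + JQ1. Single macrophage markers moved apart between the groups, with 5 of 8 lower, 2 of them by more than 2-fold, and 3 higher. Neutrophil markers summed to 24.3 to 87.3 and 13.3 to 30.1 TPM, and B cell, T and NK cell, mast cell, dendritic cell, stromal and erythroid markers each to at most 11 TPM in any of these libraries. In bulk RNA, fewer cells of a type and less RNA per cell cannot be told apart. Il10, the gene these mice lack, still collected 37, 27.1 and 33.5 normalised counts in unstimulated cells and 118.2, 142.2 and 163.7 with LPS + JQ1, a net log2 fold change of 2.08 (SE 0.23, adjusted p = 1.74e-19). The 2 groups did not overlap, and since all libraries come from knockout mice, these counts cannot check the genotype.

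Unstimulated replicate 1 stood apart from the other resting libraries in the genes of the LPS and interferon response. It was the highest of the 3 for 25 of 25 antiviral interferon-stimulated genes, 20 of 21 genes of antigen presentation and 10 of 11 NF-kB genes, against 4833 of 14645 genes tested (33.0%). Its median excess over the mean of the others was 1.17 on the log2 scale for the antiviral genes, 1.29 for the guanylate-binding proteins (GBP) and related GTPases, and -0.00161 over all genes. Without it the median net log2 fold change was 4.31 rather than 3.44 for the antiviral genes, 5.55 rather than 4.45 for the GTPases and 7.40 rather than 5.81 for the chemokines. Fitted fold changes that moved by more than 1.5-fold without this library are given both ways below. Replicate 3 of the LPS group also stood apart from its replicates, and values set against LPS are given both ways where leaving out an LPS library changed the call or moved them by more than 1.5-fold. The spread of each gene was estimated over all 18 libraries, so unstimulated replicate 1 also enters the SE of differences from LPS. A difference from LPS that did not pass the test is therefore not read as equality.

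Between LPS + JQ1 and unstimulated cells, 9144 of 14645 genes tested (62.4%) differed at an adjusted p under 0.05. Of these, 4409 genes were higher (30.1% of those tested) and 4735 were lower (32.3%). Because so many genes passed the plain test, 2 stricter questions were put to each gene. A test of a change beyond 2-fold called 1123 of 14326 genes higher (7.84%) and 1622 lower (11.3%). An equivalence test, which asks whether a change lies within 2-fold in either direction, called 5425 of 12407 genes within 2-fold of rest (43.7%), and 3107 of these also passed the plain test of a difference. The remaining genes were called neither way. Genes higher by more than 2-fold made up 8.22% of all normalised counts in unstimulated cells and 33.7% with LPS + JQ1, on average over the 3 libraries. The median log2 fold change over all genes was -0.07, with quartiles at -1.07 and 0.62. These values depend on the scaling, since the median was -0.62 when libraries were scaled by total counts and -0.41 on log2(TPM + 1), and the share of called genes that were higher was 48.2% in the main analysis, 22.3% under total-count scaling and 26.4% on TPM.

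**Figure D1:**
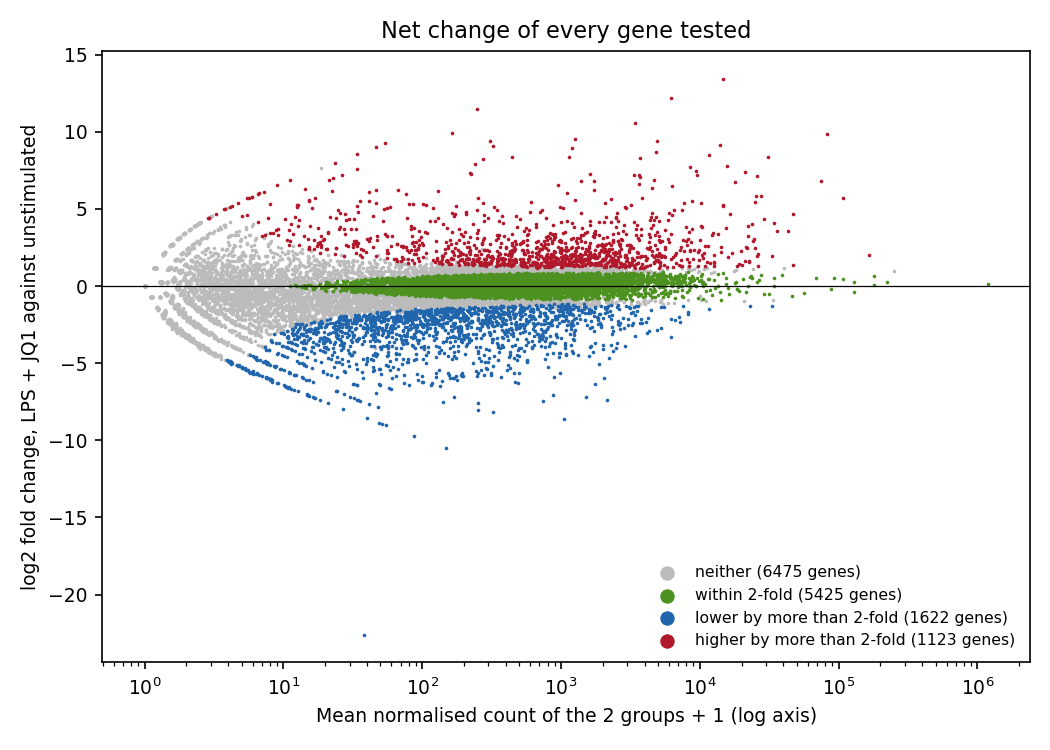
Net log2 fold change of LPS + JQ1 against unstimulated cells (vertical axis) for each of the 14645 genes tested, against the mean normalised count of the 6 libraries plus 1 (horizontal log axis). Red points are the 1123 genes higher by more than 2-fold, blue the 1622 lower by more than 2-fold, green the 5425 within 2-fold and grey the rest; the lowest point, Pisd-ps1, was counted in a single unstimulated library (0, 0 and 223.9) and is not read as a change.

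The same libraries were also set against LPS alone, which tests gene by gene whether JQ1 shifted the endpoint of the response. LPS + JQ1 was higher than LPS for 3491 of 14326 genes (24.4%) and lower for 4718 (32.9%). The net state is described below by groups of genes, ordered from sensing to effector functions and then to cell maintenance. For each group the counts are those of members higher or lower at an adjusted p under 0.05 against unstimulated cells, and the median is of the members' net log2 fold changes. Over all genes tested, 30.1% were higher and 32.3% lower, and 43.7% of the 12407 genes given an equivalence p were within 2-fold. Members within 2-fold are counted among all tested members, also those without an equivalence p, so the bases differ. The rule that chose the largest rises and falls required the libraries of the 2 groups to be separate. Where such genes are said not to overlap, this describes the choice and adds no support.

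**Figure D2:**
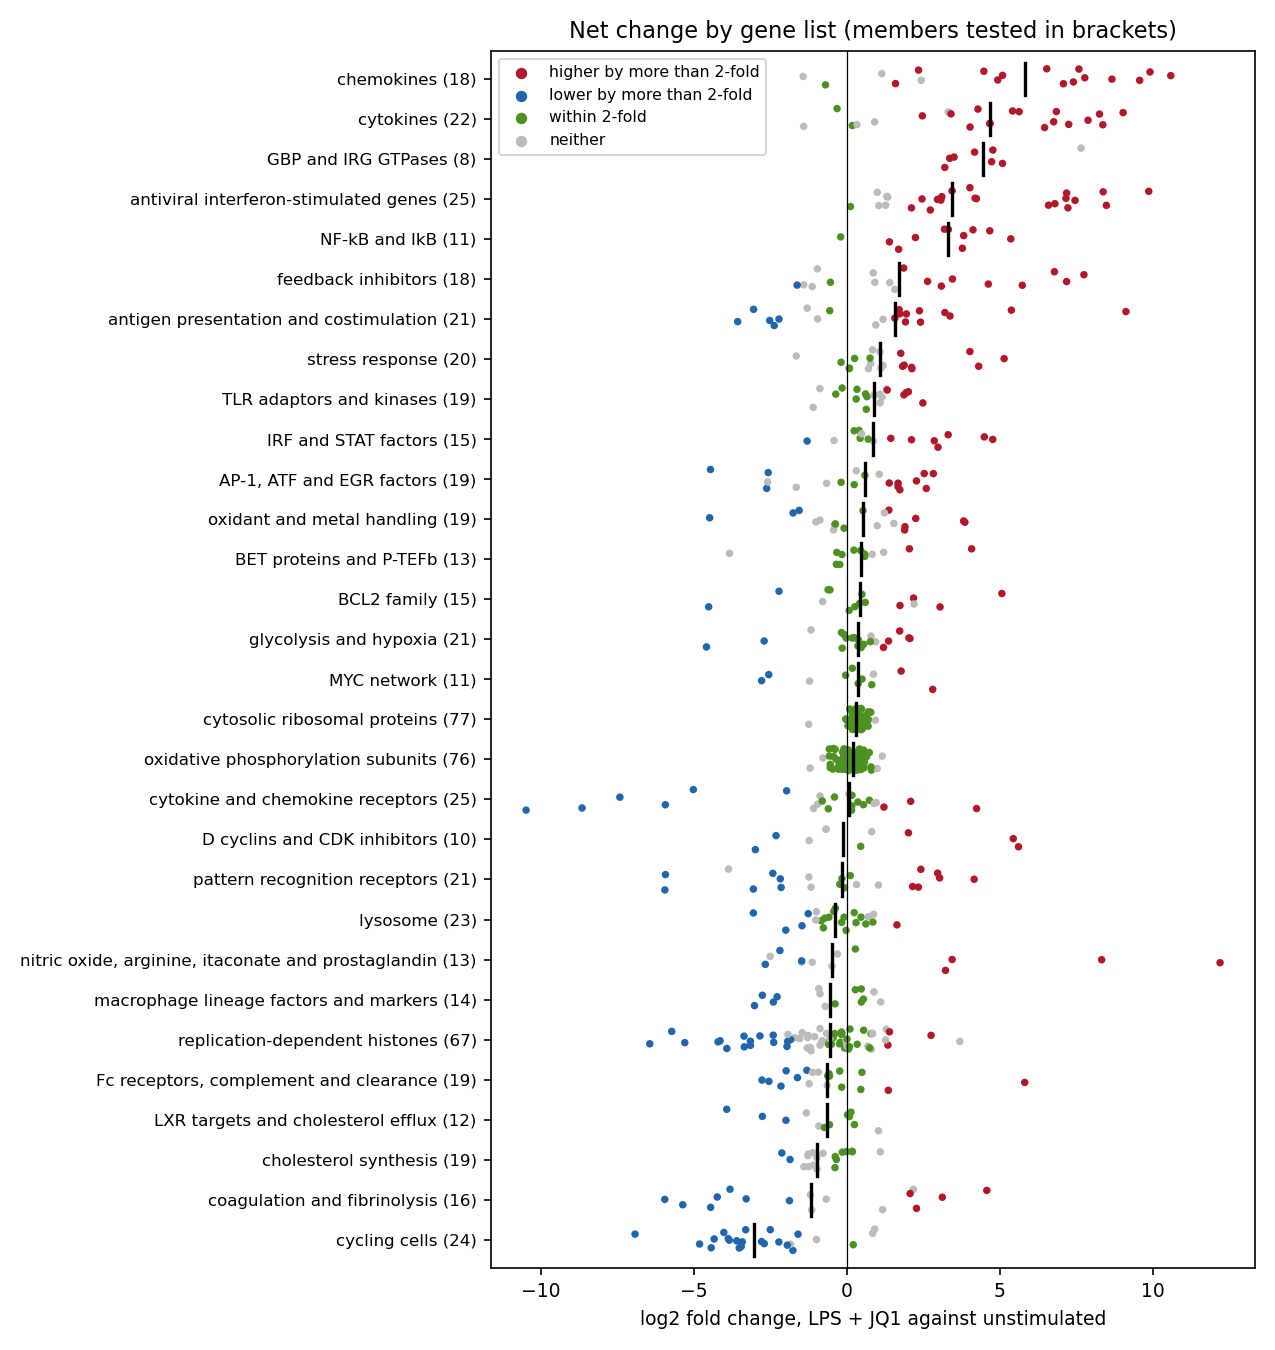
Net log2 fold change (horizontal axis) of every tested member of 30 gene lists, each point a gene and each black tick the median of its list, with the number of members tested in brackets. Lists run from the chemokines, with a median of 5.81, to the cycling cell genes, with a median of -3.05, and several lists in between hold strongly raised and strongly lowered members together.

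Among receptors that detect microbial molecules, 7 of 21 tested genes were higher, 9 were lower, and 4 were within 2-fold of rest, with a median of -0.16. Over all genes tested 30.1% were higher and 32.3% lower, and 43.7% of those given an equivalence p were within 2-fold. The Toll-like receptor genes went apart. Tlr2, the receptor for bacterial lipopeptides, read 1533, 899.8 and 1030 in unstimulated cells and 9326, 9495 and 8268 with LPS + JQ1, a net log2 fold change of 2.96 (SE 0.17, adjusted p = 8.05e-69). Tlr4, the LPS receptor itself, read 1071, 952.2 and 1112 and then 109.3, 140.1 and 128, a net log2 fold change of -3.06 (SE 0.21, adjusted p = 5.81e-46). The groups did not overlap for either gene, so the cells carried more Tlr2 RNA and less Tlr4 RNA than at rest in every library. Tlr13, a sensor of bacterial ribosomal RNA at chrX:103338543-103355832 of mm9, was among the 10 largest falls of all genes. Its counts were 3675, 3966 and 4365 at rest and 47.5, 73.7 and 73.9 with LPS + JQ1, a net log2 fold change of -5.95 (SE 0.19, adjusted p = 2.01e-216). The endosomal receptors Tlr7, Tlr8 and Tlr9 had net log2 fold changes of -2.42, -2.18 and -1.24 and passed the test as lower, and Tlr3, the sensor of double-stranded RNA, was higher at 1.03. Tlr1 and Tlr6, the partners of Tlr2, were within 2-fold of rest at -0.23 and -0.16. The LPS coreceptor Cd14 rose by 2.15 on the log2 scale, while Ly96, which encodes MD-2, was within 2-fold at 0.11. The equivalence calls for Tlr1, Tlr6 and Ly96 were lost under total-count scaling, and that for Ly96 also on a count filter and without unstimulated replicate 3 (net 0.34) or LPS + JQ1 replicate 1 (0.30), 2 (-0.22) or 3 (0.21).

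C-type lectin receptors also moved in opposite directions. Clec4e, which encodes Mincle, a receptor for mycobacterial glycolipid, read 378.8, 120.1 and 149.5 and then 3873, 4416 and 3319, a net log2 fold change of 4.16 (SE 0.45, adjusted p = 1.84e-19) that was 4.84 without unstimulated replicate 1. Clec4n, which encodes Dectin-2, read 1047, 524.3 and 606.7 and then 15.5, 11.6 and 8.62, a net log2 fold change of -5.93 (SE 0.35, adjusted p = 5.93e-62). For both genes the groups did not overlap, a condition of the rule that chose them. Clec4d and Clec7a were lower as well, at -2.15 and -1.17. The cytosolic receptors Nod1, Nod2 and Nlrp3 rose by 3.03, 2.34 and 2.42. All 3 were lower than with LPS alone, with log2 differences of -2.18, -2.49 and -3.23.

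The adaptors and kinases downstream of TLR4 were mostly raised by small amounts, with 15 of 19 higher, 3 lower and a median of 0.89. Under total-count scaling 10 were higher and 6 lower. Irak2, a kinase that sustains MyD88 signalling, read 995.9, 1001 and 893.6 and then 5662, 5070 and 5360, a net log2 fold change of 2.48 (SE 0.08, adjusted p = 6.19e-211). Tab2, Ikbke and Myd88 rose by 2.01, 1.94 and 1.86. The kinases that act first, Irak1 and Irak4, were lower, with net log2 fold changes of -1.10 (SE 0.07, adjusted p = 1.13e-51) and -0.88 (SE 0.08, adjusted p = 1.58e-25). In each of these genes the 3 libraries of one group lay entirely on one side of the other.

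Genes of NF-kB and its inhibitors were raised almost without exception, with 10 of 11 higher by more than 2-fold and a median of 3.32. Nfkbia, which encodes the inhibitor IkB-alpha and is a direct NF-kB target, read 1534, 1082 and 1111 in unstimulated cells and 32280, 29710 and 33020 with LPS + JQ1, a net log2 fold change of 4.67 (SE 0.12). Against LPS alone its difference was -0.08 (SE 0.11, adjusted p = 0.6), which did not pass the test. Nfkbiz, a nuclear cofactor of NF-kB, had the largest net change of the group at 5.35 (SE 0.18, adjusted p = 5.45e-194), with counts of 647.2, 394.1 and 418.3 against 20410, 18630 and 20940. The subunit genes Rel, Nfkb2, Nfkb1, Relb and Rela had net log2 fold changes of 4.12, 3.81, 3.77, 2.24 and 1.39. Nfkbid was the exception. It read 259.2, 197.9 and 194.4 at rest and 197.7, 188.5 and 182.2 with LPS + JQ1, overlapping groups within 2-fold of each other (adjusted p of equivalence = 8.09e-07), whereas LPS alone gave a log2 fold change of 1.94. Under total-count scaling its equivalence call was lost.

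Inhibitors that limit the LPS response followed the same direction in 13 of 18 genes, 5 were lower, and the median was 1.71. The count lower was near the 32.3% over all genes tested, of which 30.1% were higher. Socs3, a suppressor of cytokine receptor signalling, read 173.6, 23.7 and 36.2 and then 17530, 15260 and 17800, a net log2 fold change of 7.74 (SE 0.53, adjusted p = 8.56e-48) that was 9.04 without unstimulated replicate 1. Dusp2, a phosphatase of MAP kinases, read 55.5, 38.9 and 50.3 and then 7244, 6743 and 7739, a net log2 fold change of 7.18 (SE 0.14). Every LPS + JQ1 library exceeded every unstimulated library for both genes. Tnfaip3, which encodes the NF-kB inhibitor A20, and Zfp36, which encodes the mRNA decay factor tristetraprolin, rose by 4.62 and 3.45, and Zfp36 was higher than with LPS alone by 1.11. Cd200r1, an inhibitory receptor, and Dusp4 were lower at -1.63 (SE 0.12, adjusted p = 5.46e-41) and -1.41 (SE 0.18, adjusted p = 3.05e-14). Dusp1 was lower yet within 2-fold of rest at -0.54 (SE 0.14, adjusted p = 0.000362), except under total-count scaling, where the within 2-fold call was lost.

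AP-1, ATF and EGR genes split, with 10 of 19 higher, 4 lower and a median of 0.59 that was 0.04 under total-count scaling. Fos, whose product pairs with JUN in AP-1, read 2572, 1806 and 1876 at rest and 77.3, 97.9 and 110.8 with LPS + JQ1, a net log2 fold change of -4.46 (SE 0.18, adjusted p = 1.41e-139). Jun read 1726, 1833 and 1799 and then 2770, 2583 and 2692, within 2-fold of rest although higher, at 0.59 (SE 0.07, adjusted p = 2.43e-15). Junb, Jund and Atf3 rose by 2.27, 1.73 and 1.67. Fosl2 and Egr2 were lower, at -2.57 and -2.62. The 3 JUN genes were thus above their resting level, except Jun under total-count scaling, where its change was not called, while Fos and Fosl2 were below it, and the groups did not overlap for Fos or Jun.

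Of the interferon regulatory factors and STAT genes, 12 of 15 were higher and 1 was lower, with a median of 0.86, and 8 were higher and 3 lower under total-count scaling. Irf7, which amplifies interferon production, read 787.6, 236.8 and 252 and then 11400, 11340 and 12060, a net log2 fold change of 4.76 (SE 0.37, adjusted p = 2.5e-37) that was 5.56 without unstimulated replicate 1. Stat5a read 442, 336.6 and 433.7 and then 9137, 8874 and 9631, a net log2 fold change of 4.49 (SE 0.10). The ranges of the 2 groups were far apart for both genes. Stat2, a signal carrier of the interferon receptor, had a net value of 2.85. Stat6, which relays IL-4, was the member that fell, at -1.30 (SE 0.06, adjusted p = 5.74e-102). Irf2, Irf3 and Irf9 were within 2-fold of rest at 0.43, 0.40 and 0.24.

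Cytokine genes were higher in 18 of 22 cases and lower in 1, with a median net log2 fold change of 4.67. The medians of the same genes were 8.09 with LPS alone and -1.38 with JQ1 alone, and 19 of 22 were lower with LPS + JQ1 than with LPS. The net change therefore held genes that were far above rest and far below LPS at the same time. Il12b, a subunit of IL-12 and IL-23, read 18.5, 1.69 and 0 in unstimulated cells and 2172, 2092 and 2574 with LPS + JQ1, a net log2 fold change of 8.36 (SE 1.05, adjusted p = 7.92e-15) that was 12.09 without unstimulated replicate 1 and 7.74 without unstimulated replicate 3. Its mean with LPS alone was 43150. Il27 was at 3 counts or fewer in every unstimulated library and read 502.5, 484.4 and 638.9 with LPS + JQ1, at least 173-fold higher against a floor of 3 counts per library. Il1a and Il1b had net log2 fold changes of 7.25 and 6.46, which were 8.17 and 7.44 without unstimulated replicate 1. Csf1, the macrophage growth factor, rose by 6.84, with counts of 113.4, 59.2 and 66.4 against 9894, 8421 and 9381, and its difference from LPS alone, -0.63 (SE 0.31, adjusted p = 0.07), did not pass the test. Tgfb1 was the only cytokine of the list higher with LPS + JQ1 than with LPS, by 1.03 (SE 0.10, adjusted p = 4.87e-23). Osm, which encodes oncostatin M, was the member below rest, at -1.41 (SE 0.25, adjusted p = 7.97e-08).

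Chemokine genes were higher in 15 of 18 tested cases and lower in 2, with a median of 5.81, against 8.78 for LPS alone and -0.87 for JQ1 alone. Ccl7 and Ccl2 attract monocytes. Ccl7 read 6.94, 3.38 and 2.68 at rest and 6096, 6580 and 7695 with LPS + JQ1, a net log2 fold change of 10.58 (SE 0.43, adjusted p = 7.8e-132) that was 11.20 without unstimulated replicate 1. Ccl2 read 34.7, 15.2 and 20.1 and then 9283, 8967 and 10910, a net log2 fold change of 8.66 (SE 0.37, adjusted p = 1.8e-119). The groups were wide apart for both genes, and the differences from LPS alone, 0.10 (SE 0.21, adjusted p = 0.726) and -0.09 (SE 0.33, adjusted p = 0.83), did not pass the test. Ccl4 read 175.9, 101.5 and 143.5 and then 30800, 30650 and 32500 and rose by 7.77, with a log2 difference of -1.02 from LPS alone. Cxcl11 was at 3 counts or fewer in every unstimulated library and read 294.9, 380.2 and 307.7 with LPS + JQ1, at least 104.6-fold higher. Ccl6 and Pf4, chemokine genes that resting macrophages already express, were lower. Ccl6 read 1376, 1243 and 1414 and then 390.9, 567.6 and 541.6, a net log2 fold change of -1.43 (SE 0.19, adjusted p = 4.98e-13). Pf4 read 981.2, 1054 and 972.7 and then 641.6, 617.1 and 585.9, a net value of -0.70 (SE 0.07, adjusted p = 1.31e-20) that lay within 2-fold of rest, except under total-count scaling, where that call was lost.

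Ccl5 and Cxcl10 had no p-value, because DESeq2 set aside genes with an extreme library. Cxcl10 read 130.4, 6.77 and 19.4 at rest and 78440, 81380 and 78050 with LPS + JQ1, and Ccl5 read 482.9, 28.8 and 43.6 at rest and 60240, 53430 and 60550 with LPS + JQ1. Unstimulated replicate 1 was the high library at rest for both, and without it the net log2 fold changes were 12.31 for Cxcl10 and 10.64 for Ccl5. These genes were chosen after their values were seen.

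Antiviral interferon-stimulated genes were higher in 24 of 25 cases and lower in none, with 19 higher by more than 2-fold and a median of 3.44. With LPS alone their median was 6.43 and with JQ1 alone -1.95, and 20 of 25 were lower with LPS + JQ1 than with LPS. Single members spanned a wide range of net states. Rsad2, which encodes the antiviral protein viperin (chr12:27127618-27141317 of mm9), read 336.3, 77.8 and 116.6 in unstimulated cells and 151400, 180400 and 165300 with LPS + JQ1. Its net log2 fold change was 9.86 (SE 0.41, adjusted p = 1.49e-126), or 10.68 without unstimulated replicate 1, and its difference from LPS alone was -0.46 (SE 0.40, adjusted p = 0.338). Isg15, a ubiquitin-like modifier (chr4:155573533-155574927 of mm9), read 175.9, 71 and 71.1 and then 16650, 19110 and 20740, a net log2 fold change of 7.45 (SE 0.27, adjusted p = 6.79e-172), or 8.05 without unstimulated replicate 1. For both genes the groups were far apart. The difference of Isg15 from LPS alone, -0.07 (SE 0.25, adjusted p = 0.842), did not pass the test, nor did that of Rsad2. Without unstimulated replicate 1 the SE of the net change of Rsad2 was 0.18 rather than 0.41. That library enters the SE of the differences from LPS as well, and these are not given without it. Mx1 and Cmpk2 had net log2 fold changes of 8.48 (SE 0.54, adjusted p = 2.54e-55) and 8.37 (SE 0.33, adjusted p = 5.65e-143), or 9.74 and 9.08 without unstimulated replicate 1. At the other end, Oas2, a synthetase of the RNase L activator, read 452.1, 275.7 and 238.6 and then 307, 422.3 and 321.3. These overlapping groups were within 2-fold of each other (adjusted p of equivalence = 1.17e-05), although its log2 fold change was 3.53 with LPS alone and -2.93 with JQ1 alone.

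The 250 bases before the RefSeq transcription start of Rsad2, Isg15 and Nfkbia, whose differences from LPS alone did not pass the test, are shown with those of Olr1, which exceeded LPS alone, and of Il1rn, which lay within 2-fold of rest. They were picked because they hold matches. Of the 10 genes named by the rule that were higher than rest, did not pass the test against LPS and have such a window, only these 3 hold any match, and Socs3, Stat5a, C3, Mafk, Cebpb, Slc2a1 and Mab21l3 hold none. Without LPS replicate 3 the difference from LPS did pass for Mafk and Cebpb, at -0.32 and -0.54. Coordinates of these windows are of GRCm38.p6, not mm9, and each is written 5′ to 3′ on the strand of the gene. Capitals mark matches on either strand to TGANTCA (AP-1), GAAANNGAA (interferon regulatory factors) or GGNNTTTCC (NF-kB). The Rsad2 window is chr12:26456453-26456702, the Isg15 window chr4:156200819-156201068, the Nfkbia window chr12:55492648-55492897 and the Olr1 window chr6:129507166-129507415, all on the minus strand. The Il1rn window, at chr2:24336610-24336859 on the plus strand, belongs to the RefSeq start listed first of 3.
Rsad2: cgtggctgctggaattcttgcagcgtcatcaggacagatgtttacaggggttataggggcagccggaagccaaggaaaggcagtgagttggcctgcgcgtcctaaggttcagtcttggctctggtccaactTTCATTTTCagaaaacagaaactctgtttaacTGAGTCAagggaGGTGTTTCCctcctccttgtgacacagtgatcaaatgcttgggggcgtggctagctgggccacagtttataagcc
Isg15: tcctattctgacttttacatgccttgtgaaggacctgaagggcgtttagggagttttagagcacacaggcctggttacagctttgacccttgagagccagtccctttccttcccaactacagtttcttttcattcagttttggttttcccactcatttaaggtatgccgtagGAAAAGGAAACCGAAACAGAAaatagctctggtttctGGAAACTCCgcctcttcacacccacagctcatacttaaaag
Nfkbia: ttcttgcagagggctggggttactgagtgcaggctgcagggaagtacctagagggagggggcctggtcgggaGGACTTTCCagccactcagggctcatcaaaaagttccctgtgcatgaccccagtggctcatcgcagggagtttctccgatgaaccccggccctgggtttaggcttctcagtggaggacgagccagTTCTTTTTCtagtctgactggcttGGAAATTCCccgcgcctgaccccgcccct
Olr1: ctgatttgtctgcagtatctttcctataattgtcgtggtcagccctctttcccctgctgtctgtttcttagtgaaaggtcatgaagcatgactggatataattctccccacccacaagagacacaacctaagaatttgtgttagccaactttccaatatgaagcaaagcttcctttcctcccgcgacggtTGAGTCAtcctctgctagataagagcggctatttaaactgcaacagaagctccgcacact
Il1rn: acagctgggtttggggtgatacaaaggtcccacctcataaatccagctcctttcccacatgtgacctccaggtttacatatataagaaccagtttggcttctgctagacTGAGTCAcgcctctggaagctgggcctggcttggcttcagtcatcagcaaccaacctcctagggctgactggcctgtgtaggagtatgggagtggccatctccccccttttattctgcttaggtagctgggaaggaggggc
The Isg15 window holds 3 overlapping matches to the interferon regulatory factor motif and 1 to the NF-kB motif, the Rsad2 window 1 of each motif, and the Nfkbia window 2 NF-kB matches and 1 of the interferon regulatory factor motif. The Olr1 and Il1rn windows each hold 1 AP-1 match. The Il1rn window shown holds no NF-kB match, but a window of another of its 3 starts does. Over all 32851 mouse RefSeq promoters the same windows held an AP-1 match in 6.75%, an interferon regulatory factor match in 7.13% and an NF-kB match in 4.93%. Among the 1114 promoters of genes higher by more than 2-fold these shares were 7.45%, 10.5% and 7.27%. They were 5.24%, 6.25% and 4.29% among the 1680 promoters of genes lower by more than 2-fold, and 3.87%, 5.44% and 5.16% among the 5352 promoters of genes within 2-fold of rest. The shares rest on the 863 of 1123, 1230 of 1622 and 4273 of 5425 genes whose symbols matched the RefSeq table, and a match describes letters in a window, not binding.

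The interferon-induced GTPases of the GBP and IRG families, which attack intracellular pathogens, were higher in 8 of 8 tested cases, with a median of 4.45. Gbp3 read 284.7, 109.9 and 110.6 and then 5495, 5856 and 5928, a net log2 fold change of 5.08 (SE 0.28, adjusted p = 6.12e-73) that was 5.71 without unstimulated replicate 1. Iigp1 read 32.4, 5.07 and 4.69 and then 329.1, 473.9 and 389, a net log2 fold change of 4.77 (SE 0.58, adjusted p = 1.05e-15), or 6.37 without that library. Both lay above rest in every library and below LPS alone, with log2 differences of -2.01 and -4.14. Gbp2 and Gbp5, again without a p-value for the same reason and named after their values were seen, read 618.7, 67.7 and 82.5 and 173.6, 15.2 and 26.8 at rest. With LPS + JQ1 they read 49860, 56430 and 55000 and 49350, 50180 and 50930.

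Antigen presentation genes separated by pathway, with 13 of 21 higher, 8 lower and a median of 1.57. The class I genes H2-K1 and H2-D1, the peptide transporter genes Tap1 and Tap2, the immunoproteasome genes Psmb8, Psmb9 and Psmb10 and the class I regulator Nlrc5 had net log2 fold changes from 1.18 to 3.37, all called higher. The upper end is Nlrc5, which was 4.06 without unstimulated replicate 1. The class II genes H2-Aa, H2-Ab1, H2-Eb1, H2-DMa and H2-DMb1, their regulator Ciita and the invariant chain gene Cd74 had net values from -3.57 to -0.56, all called lower. The lower end is Ciita, which was -2.96 without LPS + JQ1 replicate 1 and -4.42 without LPS + JQ1 replicate 2. H2-DMb1, whose product helps load peptide on class II, read 263.1, 277.4 and 272.2 and then 36.4, 26.3 and 35.7, a net log2 fold change of -3.05 (SE 0.18, adjusted p = 2.38e-62). Its value with LPS alone was 0.17 and with JQ1 alone -2.44. H2-Eb1 read 444.3, 318 and 289.6 and then 61.8, 45.3 and 77.5, a net log2 fold change of -2.52 (SE 0.21, adjusted p = 2.11e-31). No LPS + JQ1 library reached the resting range of either gene. Reads of H2 genes may be shared among close relatives. The costimulatory receptor Cd40 read 70.2, 30.4 and 44.9 at rest and 26670, 27020 and 29520 with LPS + JQ1, a net log2 fold change of 9.12 (SE 0.28, adjusted p = 1.75e-235), and Cd274, which encodes the checkpoint ligand PD-L1, rose by 5.37. The costimulatory ligand genes went in opposite directions, Cd86 to 1.73 and Cd80 to -1.30. The call for Cd80, at 21 counts on average at rest, was lost on leaving out unstimulated replicate 1 (net -1.10), unstimulated replicate 3 (-1.15), LPS + JQ1 replicate 1 (-1.47) or LPS + JQ1 replicate 3 (-0.88).

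Genes for inflammatory mediators made from arginine and arachidonic acid contained some of the most extreme net changes, with 4 of 13 higher and 5 lower. These counts were near the 30.1% higher and 32.3% lower over all genes tested. Nos2, the inducible nitric oxide synthase (chr11:78734289-78773756 of mm9), read 6.94, 0 and 0 at rest and 12320, 11910 and 13030 with LPS + JQ1. The net log2 fold change was 12.19 (SE 0.49, adjusted p = 3e-135), or 15.96 without unstimulated replicate 1 and 11.36 without unstimulated replicate 3, so its size rests on a few resting counts. Ptgs2, which encodes cyclooxygenase-2, read 50.9, 5.07 and 11.4 and then 8464, 6587 and 7113, a net log2 fold change of 8.32 (SE 0.65, adjusted p = 5.87e-37), or 9.62 without unstimulated replicate 1. The groups were far apart for both genes, and both were lower than with LPS alone, with log2 differences of -3.04 for Ptgs2 and -0.31 for Nos2. Ptges, which encodes the prostaglandin E synthase that acts after cyclooxygenase-2, read 50.1, 11.8 and 21.4 and then 36.4, 37.9 and 34.5. It was within 2-fold of rest at 0.28 (SE 0.27, adjusted p = 0.387), with an adjusted p of equivalence of 0.00948. The call was lost without unstimulated replicate 1, where the net value was 0.98, and without LPS + JQ1 replicate 2 (0.28) or 3 (0.35). Hpgds, the prostaglandin D synthase of resting macrophages, and Alox5ap, needed for leukotrienes, were lower at -2.19 (SE 0.14, adjusted p = 1.05e-50) and -1.48 (SE 0.12, adjusted p = 2.45e-35).

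Receptors that clear immune complexes, complement and dying cells were mostly below rest, with 13 of 19 lower, 4 higher and a median of -0.64. Under total-count scaling 15 were lower and 2 higher. Fcgr1, the high-affinity IgG receptor, read 2473, 1921 and 1790 and then 265, 320.1 and 320.1, a net log2 fold change of -2.77 (SE 0.11, adjusted p = 3.29e-127). LPS alone had given 1.97 and JQ1 alone -3.29. Fcgr3, Fcgr2b and Fcgr4 were lower at -2.55, -1.99 and -1.62. These genes share sequence, so their separate values are uncertain. In contrast Fcer1g, the signalling chain of these receptors, read 4128, 3711 and 4060 and then 10360, 10350 and 9732, a net log2 fold change of 1.35 (SE 0.07, adjusted p = 1.59e-80). The complement gene C3 (chr17:57343397-57367559 of mm9) read 1966, 304.4 and 418.3 and then 55170, 43780 and 51860, a net log2 fold change of 5.81 (SE 0.61, adjusted p = 1.78e-20), or 7.12 without unstimulated replicate 1. Even the highest resting library lay far below all LPS + JQ1 libraries. C1qa, C1qb and C1qc were within 2-fold of rest at 0.45, 0.49 and -0.17.

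Several chemokine receptor genes fell close to the limit of detection. Of 25 cytokine and chemokine receptor genes, 8 were higher, 11 were lower and 10 were within 2-fold of rest, with a median of 0.06. These counts were near the shares over all genes tested, 30.1% higher and 32.3% lower. Of the genes given an equivalence p, 43.7% were within 2-fold. Under total-count scaling 3 were higher and 16 lower, with a median of -0.49. Ccr2, the receptor of Ccl2 and Ccl7, read 328.6, 290.9 and 268.1 at rest and was at 0 in all LPS + JQ1 libraries, at least 87.3-fold lower. Cxcr4, the receptor of Cxcl12, read 3893, 4727 and 4255 and then 15.5, 33.7 and 25.9, a net log2 fold change of -7.42 (SE 0.20, adjusted p = 9.62e-293). For Cxcr4 the change was -7.63 with LPS alone and 0.52 with JQ1 alone. Ccr1 and Cx3cr1 were lower at -5.02 and -5.93. Every unstimulated library exceeded every LPS + JQ1 library for Ccr2 and Cxcr4. On the raised side, Ccrl2, a chemerin-binding receptor, read 104.9, 115 and 117.3 and then 1997, 2253 and 2090, a net log2 fold change of 4.24 (SE 0.11, adjusted p = 9.44e-305), and Tnfrsf1b, which encodes TNF receptor 2, rose by 2.08. Receptors for interferon gamma, IL-10, GM-CSF and TNF receptor 1 (Ifngr1, Ifngr2, Il10ra, Il10rb, Csf2ra, Csf2rb, Tnfrsf1a) lay within 2-fold of rest. Under total-count scaling this call was lost for Ifngr1, Il10rb and Csf2ra, and for Ifngr1 (net -0.80) also without LPS + JQ1 replicate 1 (-0.86).

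**Figure D3:**
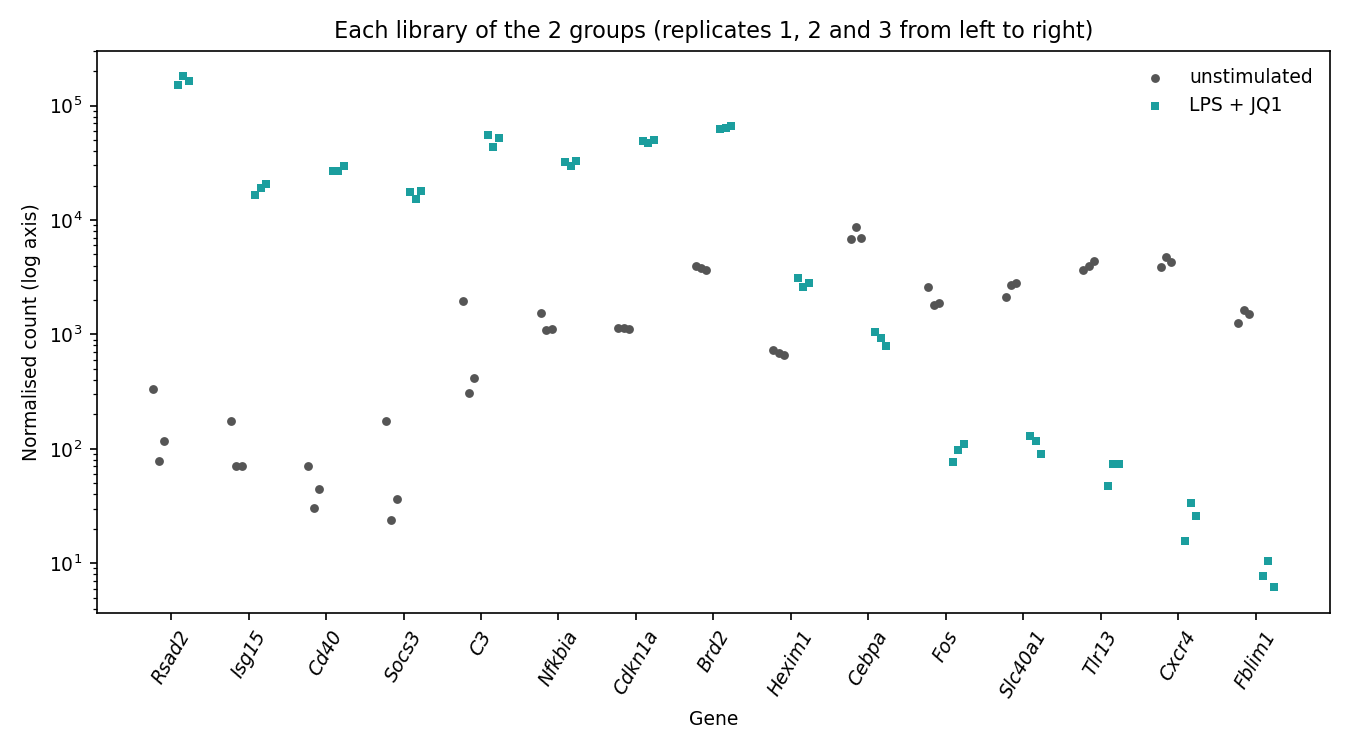
Normalised count (vertical log axis) of 15 genes in each of the 3 unstimulated (grey circles) and 3 LPS + JQ1 libraries (teal squares), replicates 1, 2 and 3 from left to right within each gene. The 9 genes on the left were raised and the 6 on the right lowered with no overlap between groups. Unstimulated replicate 1 is the highest resting library for Rsad2, Isg15, Cd40, Socs3, C3, Nfkbia and Fos, and by small margins for Cdkn1a, Brd2 and Hexim1.

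Macrophage lineage genes were split, with 7 of 14 lower, 6 higher and a median of -0.55, against 32.3% lower and 30.1% higher over all genes tested. Under total-count scaling 9 were lower and 1 higher, with a median of -1.10. Cebpa, a factor of myeloid differentiation, read 6762, 8685 and 6949 and then 1044, 925.7 and 791.5, a net log2 fold change of -3.02 (SE 0.17, adjusted p = 3.41e-66). It had fallen further with LPS alone, to -5.75, and was higher with LPS + JQ1 than with LPS by 2.73. Runx1 was lower at -2.28, whereas Spi1, which encodes the macrophage factor PU.1, and Lyz2, a lysozyme, were within 2-fold at 0.47 and 0.28. Adgre1, the gene of the F4/80 marker, read 15600, 15050 and 15130 and then 32250, 33410 and 32920, a net log2 fold change of 1.11 (SE 0.05, adjusted p = 9.85e-94). No library of one group reached the other for Cebpa or Adgre1. Cebpb was higher at 0.88 (SE 0.19, adjusted p = 6.32e-06), except under total-count scaling, where the change was not called.

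Genes for oxidant and metal handling had 10 of 19 members higher and 6 lower, with a median of 0.52 that was -0.02 under total-count scaling. The count lower was near the 32.3% over all genes tested, of which 30.1% were higher. Slc40a1, which encodes the iron exporter ferroportin, read 2101, 2686 and 2813 and then 130.3, 117.9 and 89.9, a net log2 fold change of -4.48 (SE 0.15, adjusted p = 1.06e-205). Slc11a1, which encodes the phagosomal metal transporter NRAMP1, was lower at -1.76 (SE 0.10, adjusted p = 1.21e-68). The metallothionein gene Mt2 read 70.2, 88 and 99.9 and then 945.3, 1366 and 1419, a net log2 fold change of 3.85 (SE 0.22, adjusted p = 1.57e-67), and stood 0.91 above LPS alone. Sod2, the mitochondrial superoxide dismutase, rose by 3.81. Groups were separate for all 4 genes. NADPH oxidase genes moved apart, with Cybb at 1.37 and Ncf1 and Ncf4 at -1.01 and -1.56. Srxn1 and Gclc, antioxidant genes, rose by 1.89 and 1.23, each more than with LPS alone, by 2.06 and 2.40.

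Glycolysis and hypoxia genes were higher in 14 of 21 cases and lower in 3, and 11 were within 2-fold, with a median of 0.37. Under total-count scaling the counts turned to 7 higher and 11 lower, with a median of -0.18, and on log2(TPM + 1) they were 8 and 8. Slc2a1, the glucose transporter GLUT1, read 604.8, 520.9 and 460.5 and then 2242, 2116 and 2261, a net log2 fold change of 2.06 (SE 0.11, adjusted p = 1.35e-72). Pfkl, a phosphofructokinase, read 658.8, 703.6 and 581.8 and then 2593, 2514 and 2770, a net log2 fold change of 2.02 (SE 0.13, adjusted p = 1.24e-57). Vegfa, the angiogenic growth factor, moved the other way, from 809.2, 744.2 and 730 to 125.9, 110.6 and 114.5, a net log2 fold change of -2.70 (SE 0.13, adjusted p = 7.32e-94). The groups did not overlap in any of the 3. Pkm, Aldoa, Eno1 and Ldha were within 2-fold of rest at 0.47, 0.36, 0.23 and -0.10.

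Cholesterol synthesis genes were below rest as a group, with 13 of 19 lower, 1 higher and a median of -0.98, and with 3 higher without unstimulated replicate 1. Dhcr7, which makes cholesterol from its last precursor, read 351, 307.8 and 304.3 and then 77.3, 77.9 and 65.2, a net log2 fold change of -2.13 (SE 0.15, adjusted p = 6.94e-47). Fdps, an isoprenoid synthase, read 422, 319.7 and 307.7 and then 96.1, 94.8 and 99.7, a net log2 fold change of -1.86 (SE 0.18, adjusted p = 1.92e-24). Unstimulated replicate 1 was the highest resting library in 17 of the 19 genes. Of 12 genes of the sterol receptor LXR, its targets and cholesterol efflux, 6 were lower and 1 was higher. The higher member was Nr1h2, the LXR-beta gene, at 1.03. Under total-count scaling 11 were lower, and 2 were higher without unstimulated replicate 2 or without LPS + JQ1 replicate 2. Abca1, the cholesterol exporter, and Scd2, a fatty acid desaturase, were lower at -1.99 and -3.93, the LXR-alpha gene Nr1h3 read 340.2, 297.7 and 349.2 and then 57.4, 60 and 27.1, a net log2 fold change of -2.76 (SE 0.18, adjusted p = 3.72e-54), and Apoe was within 2-fold at 0.25. Of 23 lysosomal genes 12 were lower and 8 higher, with a median of -0.38, and 14 were within 2-fold. Over all genes tested 32.3% were lower and 30.1% higher, and 43.7% of those given an equivalence p were within 2-fold. Under total-count scaling 17 were lower and 3 higher, with a median of -0.93. Ctsl, the protease cathepsin L, read 9670, 10920 and 10600 and then 30200, 34140 and 32450, a net log2 fold change of 1.63 (SE 0.10, adjusted p = 5.19e-54), against 0.06 with LPS alone. Tfeb, the transcriptional regulator of lysosome genes, read 861.7, 984.3 and 860 and then 119.3, 89.5 and 116.9, a net log2 fold change of -3.06 (SE 0.16, adjusted p = 4.7e-82).

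Genes of the proteins that JQ1 acts on came next. Among 13 genes of the BET proteins and P-TEFb, 7 were higher, 4 were lower and 8 within 2-fold of rest, with a median of 0.45. The count lower was near the 32.3% over all genes tested, of which 30.1% were higher. Of the genes given an equivalence p, 43.7% were within 2-fold. Under total-count scaling 4 were higher and 6 lower, with a median of -0.10. The count of lower genes was 2 without unstimulated replicate 1, unstimulated replicate 3 or LPS + JQ1 replicate 3, and with TMM scaling. Brd2 (chr17:34248965-34259262 of mm9) read 3927, 3822 and 3681 at rest and 62350, 64230 and 65930 with LPS + JQ1, a net log2 fold change of 4.07 (SE 0.06). Either agent alone gave less, 2.12 with LPS and 2.01 with JQ1, and LPS + JQ1 exceeded LPS by 1.96 (SE 0.06, adjusted p = 3.42e-263). Hexim1 (chr11:102977639-102981039 of mm9) read 723.6, 685 and 660.3 and then 3098, 2591 and 2835, a net log2 fold change of 2.04 (SE 0.09, adjusted p = 2.96e-114), after -1.36 with LPS alone and 2.17 with JQ1 alone. Each gene rose in all libraries without overlap. Brd3, Cdk9 and Larp7 were within 2-fold at -0.23, -0.16 and -0.34, the call for Larp7 being lost under total-count scaling. In the MYC network, Myc itself was within 2-fold of rest, reading 349.5, 233.4 and 279.5 and then 353.4, 268.5 and 361.9 (net 0.18 (SE 0.18, adjusted p = 0.398), adjusted p of equivalence = 5.37e-06). Its partner Max rose by 1.77 and the MYC antagonist Mxd1 by 2.80, while the antagonists Mnt and Mxd4 were lower at -2.55 and -2.79.

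Genes of cycling cells had the lowest median of the 30 lists, with 21 of 24 lower, 19 of them by more than 2-fold, 3 higher and a median of -3.05. Under total-count scaling 22 were lower and 0 higher. The count of higher genes was 2 without unstimulated replicate 1 or 2, or without LPS + JQ1 replicate 2 or 3. The median was -1.52 with LPS alone and -1.35 with JQ1 alone, and 19 of 24 were lower with LPS + JQ1 than with LPS. Bub1b, a checkpoint kinase of mitosis, read 174.3, 179.3 and 221.2 and then 6.63, 19 and 13.5, a net log2 fold change of -3.88 (SE 0.32, adjusted p = 1.86e-32). Mcm2, a subunit of the replicative helicase, read 229.9, 223.2 and 321.1 and then 18.8, 22.1 and 23.4, a net log2 fold change of -3.60 (SE 0.29, adjusted p = 4.2e-35). The resting libraries were well above the others for both genes. Pcna, the replication clamp, was within 2-fold of rest at 0.21. Among D cyclins and inhibitors of cyclin-dependent kinases, Ccnd1 read 989, 808.4 and 1040 and then 111.5, 126.4 and 120.6, a net log2 fold change of -2.99 (SE 0.15, adjusted p = 8.57e-86), while Ccnd2 read 50.1, 38.9 and 58.3 and then 2382, 2191 and 2824, a net log2 fold change of 5.61 (SE 0.20, adjusted p = 1.94e-171). The cell cycle inhibitor Cdkn1a, which encodes p21, read 1140, 1126 and 1120 and then 49130, 47020 and 50420, a net log2 fold change of 5.43 (SE 0.09). Here too the 2 groups were separate for each gene. Replication-dependent histone genes, whose reads can be shared among copies, were lower in 35 of 67 tested cases and higher in 12, with a median of -0.55, and 48 were lower and 6 higher under total-count scaling. They had a median of -1.80 with LPS alone, and 43 of 67 were higher with LPS + JQ1 than with LPS. Hist1h3c read 541.5, 527.7 and 608 and then 11, 16.9 and 14.8, a net log2 fold change of -5.30 (SE 0.30, adjusted p = 3.26e-67), and Hist1h4i read 111.9, 116.7 and 136.1 and then 747.7, 827.7 and 891.2, a net log2 fold change of 2.75 (SE 0.17, adjusted p = 1.37e-60).

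Stress response genes were higher in 16 of 20 cases and lower in 1, with a median of 1.10, and 12 of 20 exceeded LPS alone. Under total-count scaling 12 were higher and 5 lower. The heat shock genes Hspa1b and Hspa1a, near-identical copies, read 54.8, 64.3 and 48.3 and 54.8, 103.2 and 78.4 at rest. With LPS + JQ1 they read 1884, 1754 and 2119 and 1142, 1111 and 1459, net log2 fold changes of 5.14 (SE 0.20, adjusted p = 9.97e-151) and 4.02 (SE 0.19, adjusted p = 9.83e-94). Every LPS + JQ1 library was far above every resting library. Chac1, Sesn2 and Trib3, targets of the ATF4 branch of the stress response, had net values of 4.30, 1.08 and 0.84 and stood 3.84, 2.82 and 4.09 above LPS alone. The difference of Chac1 was 4.44 without LPS replicate 3, and the net change of Trib3 was not called under total-count scaling.

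In the BCL2 family, 9 of 15 genes were higher, 5 were lower and 7 within 2-fold of rest, with a median of 0.41. The count lower was near the 32.3% over all genes tested, of which 30.1% were higher. Of the genes given an equivalence p, 43.7% were within 2-fold. Under total-count scaling 4 were higher and 7 lower, with a median of -0.14. The prosurvival paralogs Bcl2a1d and Bcl2a1b, which can share reads, rose by 5.06 and 3.04. Bmf, a proapoptotic gene, read 704.3, 634.2 and 561.7 at rest and 29.8, 30.5 and 22.2 with LPS + JQ1, a net log2 fold change of -4.51 (SE 0.22, adjusted p = 2.22e-94). With LPS alone the change was -8.30, so LPS + JQ1 lay between LPS and rest and differed from LPS by 3.78 (SE 0.68, adjusted p = 9.54e-08), or by 4.62 without LPS replicate 1. Mcl1, which protects macrophages from apoptosis, was within 2-fold at 0.26. Coagulation and fibrinolysis genes were lower in 9 of 16 cases and higher in 6, with a median of -1.17. Thbd, which encodes the anticoagulant receptor thrombomodulin, read 266.9, 378.8 and 332.5 and then 6.63, 4.21 and 4.92, a net log2 fold change of -5.95 (SE 0.43, adjusted p = 5.3e-42). F13a1, a clot-stabilising factor, read 960.4, 573.3 and 914.3 and then 38.6, 20 and 54.2, a net log2 fold change of -4.45 (SE 0.37, adjusted p = 1.14e-32). Plau, the urokinase gene, fell by 4.24 on the log2 scale. The tissue plasminogen activator gene Plat was at 3 counts or fewer in every unstimulated library and read 672.6, 561.3 and 603.2 with LPS + JQ1, at least 195.5-fold higher.

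Of 77 cytosolic ribosomal protein genes, 74 were within 2-fold, none passed the 2-fold test and 61 were higher by small amounts, with a median of 0.31 that was -0.24 under total-count scaling, where 4 were higher and 45 lower. Rplp0, a ribosomal stalk protein, read 9810, 9906 and 10300 and then 16720, 17210 and 17440, a net log2 fold change of 0.78 (SE 0.07, adjusted p = 3.1e-31). Of 76 subunits of oxidative phosphorylation, 71 were within 2-fold, 35 were higher and 13 lower, with a median of 0.20 that was -0.35 under total-count scaling, where 4 were higher and 55 lower. The direction of these small shifts thus depended on the scaling.

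Among genes with a p-value the largest rises with more than 3 counts in every library were Ccl7, Rsad2, Cd69, Cd40, Olr1, Ccl2, Mx1, Cmpk2, Ccl4 and Socs3. Cd69, an early activation marker, read 26.2, 8.46 and 8.04 and then 9293, 10730 and 9301, a net log2 fold change of 9.38 (SE 0.52, adjusted p = 1.21e-70), or 10.22 without unstimulated replicate 1. Olr1, a scavenger receptor for oxidised LDL (chr6:129435264-129457183 of mm9), read 4.63, 6.76 and 4.02 at rest and 2081, 2894 and 2222 with LPS + JQ1, a net log2 fold change of 8.98 (SE 0.39, adjusted p = 1.53e-118). Its values were 6.61 with LPS alone and -1.63 with JQ1 alone, and LPS + JQ1 exceeded LPS by 2.37 (SE 0.14, adjusted p = 1.73e-62), whereas the difference of Cd69 from LPS was -1.34 (SE 0.48, adjusted p = 0.00974), a call lost without LPS replicate 3 (-1.20, adjusted p = 0.0542). The fitted net values of Cxcl10, Gbp5, Acod1 and Ccl5, which had no p-value and were chosen after their values were seen, would also fall in this range, at 10.54, 9.43, 8.43 and 8.29. Without unstimulated replicate 1 these values were 12.31, 11.07, 11.17 and 10.64. Among genes at 3 counts or fewer in every unstimulated library, Mab21l3 read 589.7, 590.8 and 739.8 with LPS + JQ1, at least 204.3-fold higher. Adamts4, which encodes a matrix protease and was chosen after its values were seen, had the largest fitted rise of all, from 3.86, 0 and 2.68 to 33660, 24480 and 30710. Its net log2 fold change was 13.45 (SE 0.52, adjusted p = 3.34e-148) and its difference from LPS alone 1.51 (SE 0.18, adjusted p = 7.83e-17). Without unstimulated replicate 1 its net value was 13.93, below the 15.96 of Nos2, so this rank depends on that library.

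Among the 10 largest falls with more than 3 counts in every library were Fblim1, Cxcr4, Lhfpl2, Arhgap19, Cd300lb, Engase, Lyl1, Adam19 and Tlr13. Fblim1, which encodes an adaptor of cell-matrix adhesions, read 1261, 1649 and 1499 and then 7.73, 10.5 and 6.16, a net log2 fold change of -7.47 (SE 0.33, adjusted p = 3.64e-113). Lhfpl2 read 2800, 3208 and 3004 and then 16.6, 29.5 and 14.8, a net log2 fold change of -7.19 (SE 0.21, adjusted p = 1.71e-249). Cd300lb, an activating receptor of myeloid cells, read 3099, 3558 and 3700 and then 37.5, 43.2 and 46.8, a net log2 fold change of -6.35 (SE 0.17, adjusted p = 1.2e-304). The resting libraries were far above the others in these genes, which differed in what each agent did alone, since Cd300lb changed by -6.34 with LPS alone and 0.07 with JQ1 alone, and Fblim1 by -4.66 and -3.03. Zfyve28, F630028O10Rik and Rnf144b were at 3 counts or fewer in every LPS + JQ1 library and were at least 188.7-fold, 147.2-fold and 98.9-fold lower.

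Some genes lay within 2-fold of rest although LPS alone had moved them far. Those raised by LPS and most lowered by adding JQ1 were Il1rn, Slc28a2, Tlr1, Rapgef2 and Fzd1. Il1rn, which encodes the IL-1 receptor antagonist (chr2:24192373-24207014 of mm9), read 209.1, 152.2 and 166.2 at rest, 7724, 8447 and 9909 with LPS alone, 14.7, 6.9 and 1.83 with JQ1 alone and 144.7, 149.5 and 131.7 with both. Its net log2 fold change was -0.32 (SE 0.17, adjusted p = 0.0935), within 2-fold by the equivalence test (adjusted p = 0.000124), and its difference from LPS was -5.93 (SE 0.16, adjusted p = 4.38e-297). LPS + JQ1 lay slightly below rest without overlap, and the 2 single agents lay far away on opposite sides. Tlr1 read 293.1, 243.5 and 268.1 at rest and 195.5, 250.6 and 242.5 with both, overlapping ranges, with 3.90 for LPS alone and -3.19 for JQ1 alone. Rapgef2, an activator of the GTPase Rap1, and Fzd1, a WNT receptor, differed in that JQ1 alone changed them by 0.31 and 0.09, with net values of 0.71 and 0.21 after 4.75 and 3.96 with LPS alone. Without unstimulated replicate 1 the equivalence call for Rapgef2 was lost, and under total-count scaling those for Il1rn, Slc28a2 and Tlr1 were. Ebi3, a subunit of IL-27, and Igf2bp2, an RNA-binding protein, were the other genes of this kind among those most raised over JQ1 alone, with net values of 0.18 and 0.31.

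The opposite pattern, a fall with LPS and a level within 2-fold of rest with both agents, was largest for Mknk2, Narf, Tbl2, Agfg2 and Dedd2. Mknk2, a kinase of the translation factor eIF4E (chr10:80128077-80139038 of mm9), read 3035, 3430 and 3189 at rest, 127.2, 131.3 and 98.2 with LPS alone, 6564, 7088 and 6900 with JQ1 alone and 3417, 3081 and 3485 with both. Its net log2 fold change was 0.05 (SE 0.08, adjusted p = 0.599), its equivalence p was 1.76e-33, and its difference from LPS was 4.80. The ranges of LPS + JQ1 and rest overlapped, whereas no LPS library came near them. Narf, Tbl2, Agfg2 and Dedd2 had LPS values of -4.96, -3.11, -3.30 and -3.83 and net values of -0.40, 0.49, 0.12 and -0.57. The equivalence calls for Narf and Dedd2 were lost under total-count scaling, and that for Dedd2 also without LPS + JQ1 replicate 1. Egr1, an immediate early factor, and Txnip, a brake on glucose uptake, were raised by JQ1 alone, by 1.90 and 1.94, and were within 2-fold of rest with both agents at -0.19 and 0.14. Snx5, P2ry1 and Atp7a showed the same order of values, with JQ1 alone at 1.28, 1.23 and 1.43 and both agents at -0.63, -0.58 and -0.27. Their equivalence calls were lost under total-count scaling, and those of Snx5 and P2ry1 also without unstimulated replicate 1, as was that of Snx5 without LPS + JQ1 replicate 2 and that of P2ry1 without LPS + JQ1 replicate 3.

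**Figure D4:**
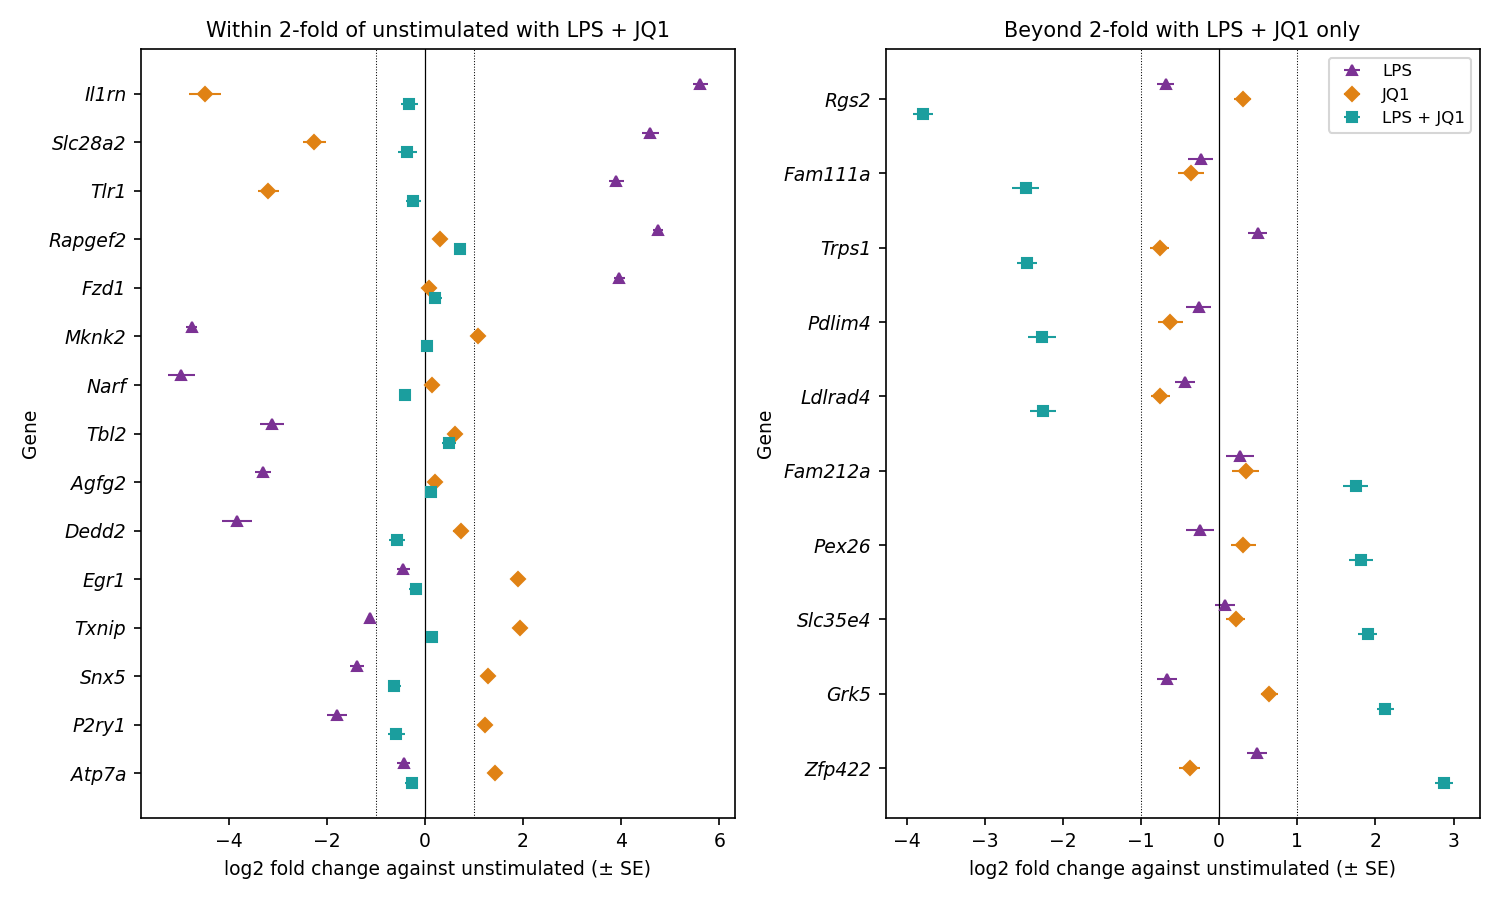
Log2 fold change against unstimulated cells (horizontal axis, bars are SE from the fit) with LPS alone (purple triangles), JQ1 alone (orange diamonds) and LPS + JQ1 (teal squares), with dotted lines at 2-fold. On the left are 15 genes within 2-fold of rest with LPS + JQ1, such as Il1rn at -0.32 after 5.61 with LPS alone, and on the right the 10 genes that only both agents together moved beyond 2-fold by the rule, such as Rgs2 at -3.80.

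Of the 14326 genes given the test beyond 2-fold, 2745 changed by more than 2-fold with both agents. Among these 2745, 67 genes had a mean count of at least 100 and were within 2-fold with each agent alone. Rgs2, a regulator that shortens G protein signals (chr1:145846468-145851291 of mm9), had the largest fall. It read 1859, 1979 and 2158 at rest, 1017, 1253 and 1464 with LPS alone, 2502, 2548 and 2340 with JQ1 alone and 140.3, 148.5 and 142.8 with both, a net log2 fold change of -3.80 (SE 0.13, adjusted p = 4.57e-191). The LPS + JQ1 libraries lay far below all others. Fam111a, Trps1, Pdlim4 and Ldlrad4 followed at -2.48, -2.46, -2.26 and -2.25. On the raised side Zfp422, a zinc finger gene, read 158.1, 159 and 154.8 at rest, 213.5, 192.3 and 252.9 with LPS alone, 137.5, 100.5 and 123.6 with JQ1 alone and 1168, 1128 and 1163 with both, a net log2 fold change of 2.88 (SE 0.11, adjusted p = 2.09e-139). Grk5, a kinase of G protein-coupled receptors, Slc35e4, Pex26 and Fam212a had net values of 2.13, 1.90, 1.81 and 1.75. Because the rule chose these genes for small changes with each agent and a large net change, the size of the contrast is a description.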

How the data were processed

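RNA was measured in 18 libraries, 3 in each of 6 groups, and groups and replicate numbers were taken from the titles. The authors made stranded libraries depleted of ribosomal RNA, sequenced paired ends, extracted reads with TagDust, used STAR to align them to mm9 and ran RSEM 1.2.31 with its defaults to quantify genes. The expected counts deposited by the authors are therefore estimated reads per gene, with reads that match several genes divided among them, so 5.40% to 6.47% of values per library were not whole and all were rounded before testing. The TPM values deposited by the authors are relative abundances scaled for gene length. FPKM values were left aside. Strand was not used in the default quantification, so overlapping antisense genes and near-identical gene copies carry uncertain counts.

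Of 24485 genes listed, 7578 had no count in any library. Replicates of these groups differed by more than sampling noise (chi-square per degree of freedom 4.77 to 10.08, and 4.59 to 28.34 in the LPS group, whose replicate 3 stood apart), so none was treated as a duplicate. The smallest share a library could show, 3 counts, was 0.183 to 0.442 CPM, a floor that covers counting error only. DESeq2 1.42.0 in R 4.3.3 was fitted to the 18 libraries together, with no term besides group. The study's methods name the Wald test of DESeq2 for pairwise comparisons and give no formula. Two-sided Wald tests used median-of-ratios size factors, default independent filtering and Benjamini-Hochberg adjusted p under 0.05, and further tests asked for a change beyond 2-fold or within 2-fold. Adjusted p-values too small to be represented are left out beside their SE. DESeq2 gave no p to 10 genes with an extreme library and no adjusted p to 2249 genes with counts. The study's methods give 3 Il10-/- mice and the titles 3 replicates a group, and neither ties a number to a mouse. The paper used paired t-tests of LPS and LPS + JQ1 for relative expression and cytokine secretion, so the groups may share donors. The numbers were not taken to pair libraries in the main fit.

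Alternatives were the replicate number as a block, only the groups compared, edgeR 4.0.16, TMM or total-count scaling, a count filter, an offset for gene length, lane as a covariate, limma 3.58.1 on log2(TPM + 1) or log2(TPM + 0.1), and leaving out each library, to which leaving out each LPS library was added after seeing the data. Replicate 1 was on lane 7 and replicate 3 on lane 8 in both groups, while replicate 2 was on lane 7 unstimulated and lane 8 with LPS + JQ1.

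The gene lists and naming rule were written with earlier results of these data known. The rule took, per list, the 2 largest rises and falls (adjusted p under 0.05, mean count at least 100, separate groups) and the most abundant member within 2-fold. It also took the 10 largest rises and falls over all genes with more than 3 counts in every library, the 3 largest bounds each way, 5 genes each way among those within 2-fold that differed most from LPS or JQ1 alone, 5 each way among those beyond 2-fold only with both agents, and Il10, Brd2, Hexim1 and Myc. It named 174 genes, of which 168 had a position in GENCODE vM1 on mm9. Other genes given are list members or are said to be chosen after their values were seen. Some members of the lists are not reported here by name. Promoters are from RefSeq on GRCm38.p6. The tests were tried on simulated data with known changes.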

Additional observations from a re-analysis of the deposited data

Results flagged for a closer look

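For 10 genes that moved beyond 2-fold only with both agents, the effect of JQ1 differed with and without LPS by the DESeq2 interaction test, which compares the change from LPS to LPS + JQ1 with the change from unstimulated cells to JQ1 on the log2 scale. Among the genes that fell, the difference was -3.42 (SE 0.17, adjusted p = 1.65e-89) for Rgs2, -1.88 (SE 0.24, adjusted p = 1.57e-13) for Fam111a and -2.19 (SE 0.18, adjusted p = 4.39e-32) for Trps1. It was -1.38 (SE 0.24, adjusted p = 1.05e-07) for Pdlim4 and -1.06 (SE 0.21, adjusted p = 3.03e-06) for Ldlrad4. Among the genes that rose, the difference was 2.77 (SE 0.17, adjusted p = 6.42e-55) for Zfp422, 2.16 (SE 0.16, adjusted p = 9.99e-38) for Grk5 and 1.62 (SE 0.17, adjusted p = 2.3e-19) for Slc35e4. It was 1.75 (SE 0.23, adjusted p = 2.4e-13) for Pex26 and 1.14 (SE 0.24, adjusted p = 8.39e-06) for Fam212a. These genes had been chosen for small changes with each agent alone and a large net change, so the adjusted p-values describe the chosen genes and are not independent of the choice. Single libraries of a group were not tested as outliers, since groups of 3 are too small for that test.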

How the results depend on the processing

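The direction and side of the threshold held in all but 1 of 2016 comparisons, under an alternative, of the 126 genes named by the rule as changed and not as within 2-fold, the exception being Cebpb under total-count scaling, and the within 2-fold calls of named genes held in 591 of 624. Most of the 126 genes were chosen for large changes and separate groups, so the choice itself favoured stable calls. Many small changes of other list members were lost or reversed under total-count scaling, such as Irf9, at 0.24 in the main fit and -0.32 there. Total-count scaling gave 2161 genes higher and 7545 lower, with 668 higher and 2891 lower by more than 2-fold. On log2(TPM + 1) limma called 2333 genes higher and 630 higher by more than 2-fold, and on log2(TPM + 0.1) it called 2320 higher, 720 higher by more than 2-fold and 2530 lower by more than 2-fold. Genes higher by more than 2-fold held 33.7% of counts with LPS + JQ1 against 8.22% at rest, and the part of this share in these shifts was not tested. With the replicate block 9202 genes changed, 9081 of them shared with the fit without it, and no call of a gene named by the rule was lost other than that of Ptges within 2-fold. Deviations of same-numbered LPS + JQ1 and unstimulated libraries from their group means correlated at 0.0198, 0.0298 and 0.055 over 12251 genes, and LPS + JQ1 replicate 1 correlated more with unstimulated replicate 2 (0.0274). Counts of changed genes were 9203 with edgeR, 9156 with lane as a covariate, 8599 with only the groups compared, 9072 with the count filter and 9122 with the length offset. Leaving out each library in turn gave 8560 to 8775 changed genes, 1024 to 1097 higher and 1433 to 1547 lower by more than 2-fold, 5109 to 5280 within 2-fold, and 7660 to 8172 differing from LPS, LPS libraries included. List counts moved by more than 1.5-fold in 75 of 960 comparisons. With 3 libraries per group, single genes with few resting counts, such as Nos2 and Il12b, have uncertain fold changes.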

Other observations

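Heatr9, Ftl1, Klf2 and Pdcd4 were chosen after their values were seen. Heatr9 was at 0 in all unstimulated libraries and read 445.1, 532.9 and 512.1 with LPS + JQ1, and its log2 difference from LPS alone was 2.71 (SE 0.17, adjusted p = 1.1e-55). Ftl1, a ferritin chain gene among the most abundant here, read 161600, 177300 and 164300 at rest and 333600, 329900 and 335200 with LPS + JQ1, a net log2 fold change of 0.99 (SE 0.10, adjusted p = 1.09e-23), and exceeded LPS alone by 1.70 (SE 0.10, adjusted p = 2.17e-67). Klf2, a factor that quiets macrophages, read 113.4, 153.9 and 121.3 at rest and 328, 314.9 and 347.1 with LPS + JQ1, with no overlap, after a log2 fold change of -1.31 with LPS alone and 1.39 with JQ1 alone. Pdcd4, a translation inhibitor, was below rest at -1.13 (SE 0.14, adjusted p = 6.91e-16) and above LPS alone by 3.06 (SE 0.24, adjusted p = 2.37e-35). The scavenger receptor gene Msr1, given by the naming rule, read 2698, 1918 and 2221 at rest and 2130, 2228 and 2132 with LPS + JQ1, overlapping ranges within 2-fold of each other (adjusted p of equivalence = 4e-11), although LPS alone gave a log2 fold change of 2.17.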
